A study of Mus musculus with 36 samples.

Results

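Interferon-gamma, the TNF family ligands and other cytokine genes of mouse natural killer (NK) cells are described here as 8 genes: Ifng (ENSMUSG00000055170), Tnf (ENSMUSG00000024401), Lta (ENSMUSG00000024402), Ltb (ENSMUSG00000024399), Fasl (ENSMUSG00000000817), Tnfsf10 (ENSMUSG00000039304), Csf2 (ENSMUSG00000018916) and Il10 (ENSMUSG00000016529). They were chosen by symbol, and all 8 were present in each of 4 expression tables, of 32940 genes in the table of sorted subsets and 56923 genes in each of the other tables. RNA was sequenced from 36 samples in 12 groups of 3 replicates. In the first table, mature CD27- CD11b+ NK cells were sorted from the spleen of C57BL/6 wild-type (WT, B2m+/+) or B2m-/- (KO) mice by inhibitory receptors into triple positive (TP, Ly49C+ Ly49I+ NKG2A+), single positive (SP, Ly49C- Ly49I+ NKG2A-) and triple negative (TN, Ly49C- Ly49I- NKG2A-) cells. B2m encodes the light chain of MHC class I, the ligand of these receptors, so the KO mice lack normal class I on all their cells. In the second table, WT splenocytes were kept for 22 hours with ionomycin, an ionophore that carries calcium into cells, or with its vehicle, and NK cells were purified by FACS, so other spleen cells shared the culture. In the third table, WT splenic NK cells were kept for 48 hours in medium or on plate-bound antibodies to the activating receptors NKp46 and NKG2D, or NKp46 and DNAM-1. In the fourth table, CD27- CD11b+ NK cells were taken from C57BL/6 mice that had carried a subcutaneous graft of B2m-/- MC38 cells (from a mouse colon carcinoma) for 10 days. The columns of that table carry the names B2MKO and SP, while the sample labels give the genotype as WT and name no inhibitory receptor subset. The labels are followed here, and the host genotype and subset of these libraries are uncertain. No untreated group stands beside the tumour samples in that table. Age and sex were not given in the labels used here.

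Interferon-gamma is the main macrophage-activating cytokine of NK cells, and its receptor on target cells signals through JAK kinases. Ligands of the TNF family act as trimers: TNF and the lymphotoxins feed NF-kappaB signalling, while FAS ligand and TRAIL (Tnfsf10) engage death receptors that activate caspase-8. Resting mouse NK cells are known to hold Ifng transcripts ready for translation and to raise cytokine transcription after activating receptors or cytokines are engaged, partly through calcium and the factor NFAT.

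Tnf, Lta and Ltb lie side by side on chromosome 17, where the annotated starts of Ltb and Tnf are 7.5 kb apart and those of Tnf and Lta 3.34 kb apart (RefSeq, GRCm38.p6). The 250 bases before the annotated start were found for 7 of 8 genes in the RefSeq table of that build. They are shown for Ltb, which differed between subsets, and for Ifng, Tnf and Fasl, which were lower together on antibodies, 5′ to 3′ on the strand of the gene. Capitals mark matches, on either strand, to GGAAA, the NFAT core, or to an NF-kappaB site (GGG, any 5 bases, CC).
Ifng, chr10:118440796-118441045, plus strand: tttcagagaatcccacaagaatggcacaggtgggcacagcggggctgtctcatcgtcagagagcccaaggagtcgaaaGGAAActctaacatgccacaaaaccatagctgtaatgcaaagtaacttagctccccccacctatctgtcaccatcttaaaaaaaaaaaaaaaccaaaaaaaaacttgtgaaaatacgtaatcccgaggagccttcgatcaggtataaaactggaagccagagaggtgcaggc
Tnf, chr17:35202008-35202257, minus strand: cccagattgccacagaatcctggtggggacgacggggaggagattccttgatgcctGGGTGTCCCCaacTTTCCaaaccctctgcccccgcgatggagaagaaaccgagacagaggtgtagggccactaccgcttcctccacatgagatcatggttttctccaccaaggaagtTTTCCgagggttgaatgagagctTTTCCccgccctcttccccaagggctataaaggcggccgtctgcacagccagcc
Fasl, chr1:161788496-161788745, minus strand: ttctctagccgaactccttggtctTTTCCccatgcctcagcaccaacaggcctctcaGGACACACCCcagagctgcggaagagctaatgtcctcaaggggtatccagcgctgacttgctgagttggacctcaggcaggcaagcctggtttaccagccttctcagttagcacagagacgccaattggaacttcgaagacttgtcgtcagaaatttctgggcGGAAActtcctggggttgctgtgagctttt
Ltb, chr17:35194257-35194506, plus strand: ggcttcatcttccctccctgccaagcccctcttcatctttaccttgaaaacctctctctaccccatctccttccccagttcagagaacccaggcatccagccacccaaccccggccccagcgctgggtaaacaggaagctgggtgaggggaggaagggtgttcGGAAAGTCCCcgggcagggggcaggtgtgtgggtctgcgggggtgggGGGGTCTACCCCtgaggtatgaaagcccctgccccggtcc
The NFAT core matched 1 time for Ifng, 3 times for Tnf, 2 times for Fasl and 1 time for Ltb. The NF-kappaB letters matched 0 times for Ifng, 1 time for Tnf, 1 time for Fasl and 4 times for Ltb, where matches overlap each other and 1 overlaps the NFAT core 87 bases before the start. For Lta, Csf2 and Tnfsf10, which are not shown, the NFAT core matched 2, 2 and 1 times. The NF-kappaB letters matched 2, 0 and 0 times there. Such matches are common: of 32851 promoters, 55.6% held the NFAT core and 45.8% the NF-kappaB letters. The AP-1 letters TGANTCA had 0 matches in the 7 promoters and were in 6.75% of all promoters. These windows come from another build than the expression tables, and a match is a description of letters.

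The tables hold TPM (transcripts scaled to a fixed library total), which scale for gene length, so levels of different genes can be set side by side, but they keep no record of depth. Genes above 0 per library ran from 12290 to 14501 in the subset table, 13904 to 15483 in the ionomycin table, 13555 to 18096 in the antibody table and 14155 to 16271 in the tumour table. B2m, the targeted gene, was at 2915 to 3420 TPM in the 9 WT and 73.9 to 128 TPM in the 9 KO libraries of sorted cells. All 11 NK cell markers were present in each group, with summed levels of 20085 to 24283 TPM in sorted cells, 6269 to 18985 TPM in the ionomycin table, 13241 to 16564 TPM in the antibody table and 12169 to 13129 TPM in tumours. In the antibody experiment, the sample title and the table column named in the description give different groups for 6 of 9 samples. Groups here follow the columns. Values under the titles are given after the antibody results for Ifng, Tnf and Fasl, with counts of genes called. Each table carries 1 batch label, which the ionomycin and tumour tables share, so no comparison crosses a batch. The labels call the replicates biological.

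In freshly sorted NK cells, Fasl and Ifng were the most abundant of the 8 transcripts and Ltb was the one that differed between subsets. Mean levels over the 18 libraries were 170 TPM for Fasl, 50.6 TPM for Ifng, 17.4 TPM for Ltb, 6.41 TPM for Tnfsf10 and 2.24 TPM for Csf2. Tnf was listed at 0 in 8 of 18 libraries and reached at most 1.03 TPM. Lta was listed at 0 in 13 libraries with a highest value of 1.52 TPM, and Il10 in 15 with a highest value of 1.11 TPM. These 3 genes were under the mean of 1 TPM required for a test, so 5 of 8 genes were tested in sorted cells.

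**Figure D1:**
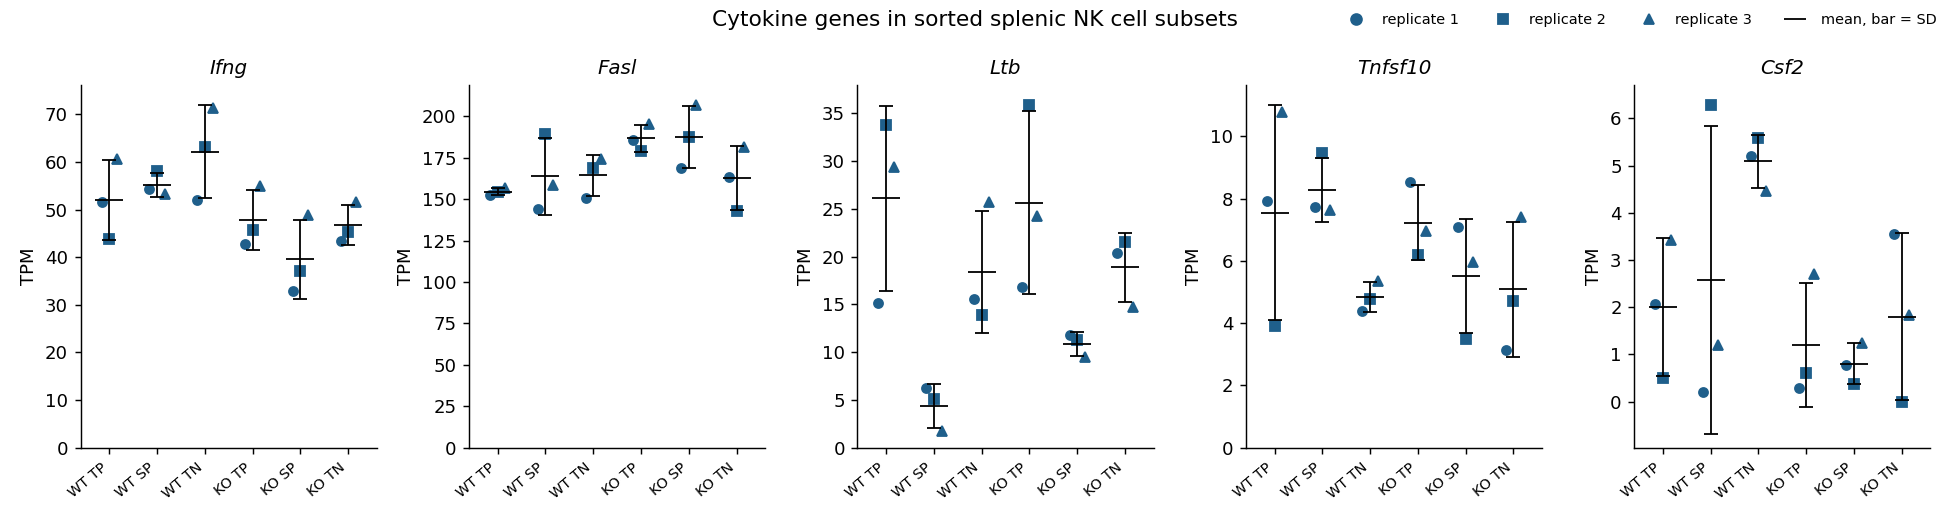
TPM of the 5 tested genes in sorted splenic NK cells, with 1 panel per gene, 3 libraries per group as points, the mean as a line and the SD as a bar. Ltb in WT SP cells, at 1.75 to 6.25 TPM, lies below every other group, while Fasl and Ifng stay within 142.74 to 206.55 TPM and 32.8 to 71.41 TPM.

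Ltb encodes lymphotoxin-beta, the membrane subunit that joins lymphotoxin-alpha in a heterotrimer. In WT TP cells it was at 15.15, 33.77 and 29.36 TPM in replicates 1, 2 and 3, and in WT SP cells at 6.25, 5.1 and 1.75 TPM. All 3 SP libraries were below all 3 TP libraries. Ltb fell from 26.1 ± 9.73 TPM in TP to 4.37 ± 2.34 TPM in SP (SD, n = 3), a log2 change of TPM + 1 of -2.38 with SE 0.38, 95% interval -3.18 to -1.58 and adjusted p = 0.00824 (limma, Benjamini-Hochberg over all genes tested). In a bulk sample, fewer cells of a type and less RNA per cell cannot be told apart. The call was lost without WT TP replicate 2 (adjusted p = 0.0631, limma), without WT TP replicate 3 (adjusted p = 0.0547) and when only the compared groups were fitted (adjusted p = 0.601), with the log2 change between -2.16 and -2.38.

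In KO mice, Ltb was at 16.8, 35.83 and 24.25 TPM in TP cells and at 11.79, 11.26 and 9.46 TPM in SP cells. These groups also did not overlap, and the log2 change was -1.11 (95% interval -1.91 to -0.31, unadjusted p = 0.00923), with an adjusted p of 1 in limma. Between genotypes within SP cells, Ltb was higher in every KO library than in every WT library, at 10.8 ± 1.22 against 4.37 ± 2.34 TPM. That log2 change of 1.25 (95% interval 0.45 to 2.05) had an adjusted p of 0.136 in limma. The difference between genotypes in the SP against TP change was not tested. TN cells held 15.59, 13.9 and 25.73 TPM of Ltb in WT and 20.42, 21.48 and 14.74 TPM in KO mice. From highest to lowest mean the order was WT TP, KO TP, KO TN, WT TN, KO SP and WT SP. The first 4 overlap with each other, and the SP group of each genotype lies below all of them.

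Markers of type 1 innate lymphoid cells (ILC1), relatives of NK cells, were lower in sum in SP and in TN than in TP cells. The summed level of the 5 listed genes was 12.6 to 14.1 TPM in WT TP, 1.62 to 3.04 TPM in WT SP and 2.95 to 4.68 TPM in WT TN libraries. In KO mice it was 13.3 to 22.6 TPM in TP, 3.63 to 8.75 TPM in SP and 3.39 to 7.36 TPM in TN libraries. Il7r, the receptor subunit for interleukin-7, ran from 3.84 to 5.67 TPM in WT TP and from 0 to 0.17 TPM in WT SP cells, and none of the 5 markers was at 0 in all libraries of a group. Il7r and Itga1 did not overlap between TP and SP cells in either genotype, and Tmem176a did not in WT mice. Cxcr6 and Gpr183 overlapped in both genotypes, and Tmem176a in KO mice. In KO mice Gpr183 ran from 0 to 0.34 TPM in TP and from 0.09 to 0.85 TPM in SP cells. The part of these markers in the Ltb result was not tested.

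Ifng, the gene of interferon-gamma, was called in none of the comparisons of sorted cells. It was at 51.51, 43.8 and 60.7 TPM in WT TP, 54.23, 58.06 and 53.31 TPM in WT SP, and 52.08, 63.05 and 71.41 TPM in WT TN libraries. In KO mice it was at 42.83, 45.76 and 54.96 TPM in TP, 32.8, 37.09 and 48.76 TPM in SP, and 43.49, 45.24 and 51.57 TPM in TN libraries. The 3 KO libraries lay below the 3 WT libraries in SP and in TN cells, and the genotypes overlapped in TP cells. In SP cells the mean was 39.6 ± 8.26 TPM in KO against 55.2 ± 2.52 TPM in WT, a log2 change of -0.49 (95% interval -0.84 to -0.13, adjusted p = 0.212, limma). In TN cells it was 46.8 ± 4.25 TPM against 62.2 ± 9.69 TPM, a log2 change of -0.40 (95% interval -0.75 to -0.04, adjusted p = 0.403, limma). In TP cells the log2 change was -0.11 (95% interval -0.47 to 0.24). Among WT subsets, TN against TP gave 0.25 (95% interval -0.10 to 0.61) and SP against TP 0.10 (95% interval -0.26 to 0.45). The genotype difference in TN against TP was -0.28 (95% interval -0.78 to 0.22, adjusted p = 0.882, limma).

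Fasl, the ligand of the death receptor FAS, was called in no comparison of sorted cells. It was at 152.62, 154.4 and 156.46 TPM in WT TP libraries. The KO TP libraries held 185.48, 179.14 and 195.18 TPM, without overlap. The log2 change was 0.27 (95% interval 0.03 to 0.51) with an adjusted p of 0.344 in limma. The B cell and plasma cell markers summed to 404 to 683 TPM and the macrophage, monocyte and neutrophil markers to 70.8 to 227 TPM in these KO TP libraries, against at most 337 and 25.8 TPM in the other sorted groups. The T cell markers found, 7 of 8, summed to 12.5 to 17.6 TPM in KO TP and 3.35 to 4.96 TPM in WT TP libraries, and to 0 to 14.8 TPM in the other sorted groups. Among them Cd3g was higher in KO than in WT TP cells, at 9.49 ± 1.58 against 1.22 ± 1.22 TPM (adjusted p = 0.0184, limma). Of the markers in these 3 lists, Elane and Cd8a were at 0 in all KO TP libraries, and the part of the lists in the Fasl values was not tested. SP libraries held 143.78, 189.42 and 158.36 TPM of Fasl in WT and 168.78, 187.53 and 206.55 TPM in KO mice. TN libraries held 150.54, 168.69 and 174.18 TPM in WT and 163.27, 142.74 and 181.41 TPM in KO mice. Both pairs overlap, with log2 changes of 0.20 (95% interval -0.04 to 0.44) and -0.02 (95% interval -0.26 to 0.22).

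Tnfsf10 encodes TRAIL, a death receptor ligand, and was low in every subset. In WT mice it was at 7.92, 3.91 and 10.79 TPM in TP, 7.74, 9.48 and 7.64 TPM in SP, and 4.39, 4.76 and 5.36 TPM in TN libraries. In KO mice it was at 8.54, 6.19 and 6.95 TPM in TP, 7.08, 3.49 and 5.96 TPM in SP, and 3.12, 4.72 and 7.4 TPM in TN libraries. The SP libraries of KO mice were below those of WT mice, with a log2 change of -0.55 (95% interval -1.29 to 0.19, adjusted p = 0.572, limma). Csf2, the gene of the myeloid growth factor GM-CSF, was the most variable, with WT values of 2.07, 0.5 and 3.42 TPM in TP, 0.21, 6.29 and 1.2 TPM in SP, and 5.21, 5.58 and 4.47 TPM in TN libraries. All WT TN libraries were above all WT TP libraries, but the log2 change of 1.15 (95% interval -0.28 to 2.58) had an adjusted p of 0.523 in limma. KO libraries held 0.29, 0.61 and 2.71 TPM of Csf2 in TP, 0.77, 0.38 and 1.25 TPM in SP, and 3.55, 0 and 1.84 TPM in TN cells. The KO TN libraries lay below those of WT mice, with a log2 change of -1.37 (95% interval -2.80 to 0.06, adjusted p = 0.501, limma).

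The counts of cytokine genes called are read against the share of all genes called. In WT SP against TP, 1 of 5 was called, where 0.191% of the 12018 genes tested were. In the other comparisons of sorted cells 0 of 5 were called by limma, where the share of all genes called was 1.31% for WT TN against TP, 0.524% for KO TN against TP, 0.200% for KO SP against TP, 1.59% for KO against WT in TP, 1.35% in SP, 0.716% in TN and 0.0250% for the interaction of genotype with TN against TP. At an unadjusted p under 0.05, 2 of 5 genes passed for KO against WT in SP cells, where 11.7% of all genes did. For KO against WT, 1 of 5 passed in TP and 1 of 5 in TN cells, where 11.8% and 10.5% of all genes did. For SP against TP, 1 of 5 passed in WT and 1 of 5 in KO mice, beside 7.71% and 2.93% of all genes. None of the 5 passed for WT TN against TP, KO TN against TP or the interaction, beside 12.5%, 6.43% and 6.27% of all genes.

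Several listed partners of these cytokines differed between genotypes. Of all genes tested, 1.59% were called for KO against WT in TP, 0.716% in TN and 1.35% in SP cells. Of 22 tested genes for receptors and downstream signalling, 2 rose in KO TP cells and 2 in KO TN cells, and 1 rose in KO SP cells, with 0 lower in each. Ifngr1, the ligand-binding chain of the interferon-gamma receptor, rose from 560 ± 27.9 to 938 ± 76.3 TPM in SP cells. Its log2 change there was 0.74, beside 0.66 for TP and 0.63 for TN cells. Socs1, an inhibitor of JAK signalling, rose with log2 changes of 1.35 in TP and 1.61 in TN cells. Of 32 tested regulators of cytokine production, Zfp36l2, an RNA-binding protein of the family that promotes decay of AU-rich transcripts, rose from 357 ± 29.3 to 968 ± 61.5 TPM in TP cells. Its log2 change was 1.44 there, 1.32 for SP and 1.16 for TN cells. The interleukin-18 receptor chains went opposite ways: Il18r1 rose by 0.38 in TP and 0.40 in SP, while Il18rap fell by 0.30 in TP and 0.33 in SP on the log2 scale. Of 12 tested other cytokines and TNF ligands, Tnfsf14, the ligand LIGHT, rose in KO TP cells with a log2 change of 0.97. In that comparison the T cell marker Cd3g, the plasma cell marker Igha and the neutrophil and monocyte markers Ngp, S100a8 and S100a9 were also called higher, and their part in the Tnfsf14 result was not tested. Between WT subsets, the T-box factor Eomes rose by 0.73 and the NF-kappaB subunit Nfkb1 by 0.52 from TP to TN on the log2 scale. For SP against TP of either genotype, KO TN against TP and the interaction, limma called 0 genes of the 3 lists. At an unadjusted p under 0.05, the receptor and signalling, regulator and other cytokine lists then held 2, 4 and 2 genes for WT SP against TP and 0, 2 and 0 for KO SP against TP. They held 3, 8 and 3 genes for KO TN against TP and 0, 4 and 1 for the interaction. These counts are of 22, 32 and 12 tested genes, and the shares of all genes at that p are those given above.

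Over the 18 sorted libraries, the genes whose log2 values were most like each cytokine are given as a description, since libraries share groups and composition. Closest to Ifng were Xcl1, a chemokine of NK cells (Pearson r = 0.817), Zfp831 (0.801) and Atf4 (0.774). For Ltb these were Flvcr1 (0.773), Csrp2 (0.771) and Cd28 (0.76). Fasl was most like Vbp1 (0.775), Dnajb9 (0.76) and Gimap9 (0.755). Tnfsf10 was most like Clpb (0.751), Hexa (0.746) and Rrp36 (0.728), and Csf2 most like Slc43a2 (0.758), Osbpl1a (0.742) and Kat5 (0.741). Between the 5 cytokine genes the highest correlation was 0.645, for Csf2 and Ifng, and the others ran from -0.281 to 0.305.

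In the 22-hour culture, Ifng had the widest range of the 8 genes among the vehicle replicates, and none of the 8 genes was called for ionomycin. Ifng was at 27588.52, 2521.53 and 82.44 TPM in vehicle replicates 1, 2 and 3 and at 1555.68, 1002.14 and 851.61 TPM in the ionomycin replicates. It was the most abundant transcript of the first vehicle library and ranked 29 and 2676 in the others, against 102 to 179 with ionomycin. The vehicle values span the ionomycin values on both sides. The mean was 1136 ± 371 TPM with ionomycin against 10064 ± 15226 TPM with vehicle, and the log2 change was -0.71 (95% interval -4.51 to 3.09, adjusted p = 0.897, limma), so the replicates did not resolve a change of several fold in either direction. Without vehicle replicate 1 the log2 change was 1.26 and without vehicle replicate 3 it was -2.92. Summed NK cell markers were 18985, 16375 and 8712 TPM in the vehicle replicates and 6269 to 8531 TPM with ionomycin. The macrophage, monocyte and neutrophil markers summed to 19.3, 27.4 and 311 TPM in the vehicle replicates and 21.1 to 135 TPM with ionomycin, and Adgre1, Elane, Ly6g, Csf1r and C1qb were at 0 in all vehicle libraries. The T cell markers summed to 2.24 to 7.87 TPM with vehicle and 13.2 to 25.3 TPM with ionomycin, with Cd4, Cd8a and Cd8b1 at 0 in all 6 libraries. The 5 ILC1 markers summed to 102 to 156 TPM with vehicle and 57.4 to 83.9 TPM with ionomycin. The part of these markers in the values of the 8 genes was not tested.

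Csf2 was at 54.4, 56.86 and 5.02 TPM with vehicle. Ionomycin libraries held 6.42, 6.21 and 0 TPM. As with Ifng, the third vehicle library was the lowest, and it overlaps the ionomycin libraries. The log2 change was -2.83 (95% interval -5.26 to -0.40, adjusted p = 0.254, limma). Il10, which encodes an inhibitory cytokine, was at 7.33, 4.14 and 0 TPM with vehicle and was listed at 0 in all 3 ionomycin libraries (adjusted p = 0.419, limma). Without vehicle replicate 3 its adjusted p was 0.0497.

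Among the TNF family, Lta, which encodes the secreted lymphotoxin-alpha, was at 21.55, 5.74 and 5.48 TPM with vehicle. In the ionomycin libraries it was at 3.78, 0.72 and 2.09 TPM. Its groups did not overlap, and the log2 change was -1.76 (95% interval -3.38 to -0.13, adjusted p = 0.292, limma). Ltb was at 39.7, 121.97 and 151.07 TPM in vehicle libraries against 55.09, 61.22 and 72.01 TPM after ionomycin, with the first vehicle library lowest of all. Tnf was low in all 6 libraries, at 1.21, 3.84 and 2.5 TPM against 2.92, 3.09 and 3.2 TPM. Fasl, at 142.69, 245.18 and 196.37 TPM with vehicle and 188.25, 227.12 and 246.72 TPM with ionomycin, gave a log2 change of 0.21 (95% interval -0.36 to 0.77). Tnfsf10 was at 3.52, 2.62 and 11.95 TPM and 4.95, 1.53 and 6.27 TPM, and these 2 groups overlap as those of Ltb, Tnf and Fasl do.

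Of the 8 genes, 0 were called by limma, where 2.91% of 14372 genes tested were, and 2 of 8 had an unadjusted p under 0.05 (Csf2 and Lta, named after their values were seen), where 15.1% of all genes did. The median log2 change was -0.62 over the 8 genes and -0.0044 over all genes. The listed partner genes are read against the same 2.91% of all genes called. Tnfsf8, the CD30 ligand, rose from 0.533 ± 0.499 to 60.5 ± 6.97 TPM (log2 change 5.38), the only 1 of 16 tested cytokines and ligands called. Of 33 tested regulators 3 rose and 1 fell. Irf4, a factor induced by antigen receptor signals, was listed at 0 in all vehicle libraries and at 16.55 to 38.33 TPM with ionomycin. Ikzf2 rose with a log2 change of 2.18 and Ikzf3 of 1.37, both Ikaros family factors, and Runx3, a regulator of NK cell differentiation, fell from 365 ± 69.9 to 92.2 ± 20.2 TPM (log2 change -1.98). Of 22 tested receptors and signalling genes 1 was called, Stat3, which rose with a log2 change of 1.43.

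**Figure D2:**
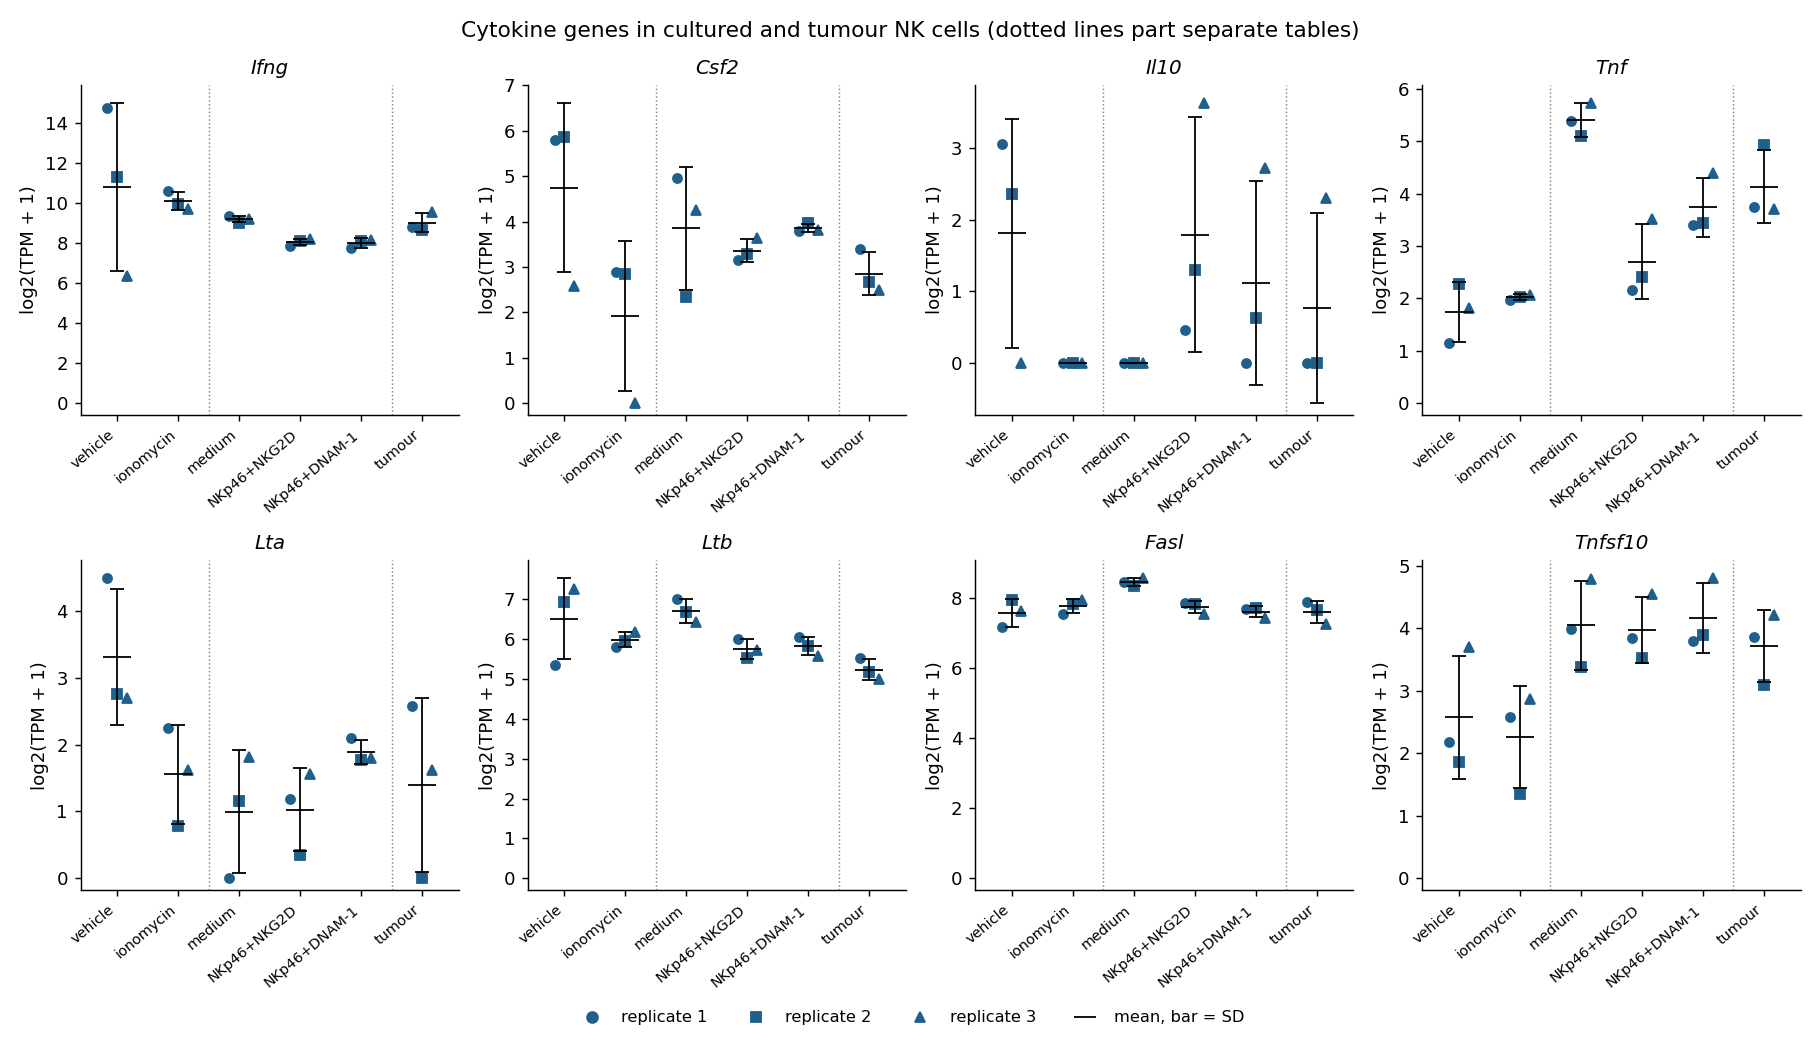
Log2(TPM + 1) of the 8 genes in cultured and tumour NK cells, with 3 libraries per group as points, the mean as a line and the SD as a bar; dotted lines separate tables, which were not compared. Ifng spreads from 82.44 to 27588.52 TPM in the vehicle group, and Ifng, Tnf, Ltb and Fasl of the medium group lie above both antibody groups.

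On antibodies to NKp46 and NKG2D, Ifng, Tnf and Fasl were lower than in medium after 48 hours. Ifng was at 655.91, 519.93 and 600.32 TPM in medium and at 234.24, 275.15 and 292.36 TPM on NKp46 and NKG2D antibodies. The groups were far apart, and Ifng fell from 592 ± 68.4 to 267 ± 29.9 TPM (log2 change -1.14, SE 0.14, 95% interval -1.46 to -0.83, adjusted p = 0.00531, limma). On NKp46 and DNAM-1 antibodies it was at 212.35, 274.85 and 286.42 TPM and fell to 258 ± 39.8 TPM (log2 change -1.20, SE 0.14, 95% interval -1.52 to -0.89, adjusted p = 0.00373, limma). Both comparisons share the medium libraries. The antibody pairs did not differ in Ifng beyond the spread (log2 change -0.06, 95% interval -0.37 to 0.26, adjusted p = 1, limma).

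Tnf, which encodes TNF, was at 40.64, 33.17 and 52.16 TPM in medium. It was at 3.48, 4.34 and 10.42 TPM on NKp46 and NKG2D antibodies, all below medium, and fell from 42.0 ± 9.57 to 6.08 ± 3.78 TPM (log2 change -2.70, SE 0.40, 95% interval -3.60 to -1.81, adjusted p = 0.0197, limma). On NKp46 and DNAM-1 antibodies it was at 9.54, 9.82 and 19.98 TPM, also below medium. That log2 change of -1.66 (95% interval -2.55 to -0.77) had an adjusted p of 0.098 in limma. Between the antibody pairs Tnf gave a log2 change of 1.04 (95% interval 0.15 to 1.94, adjusted p = 1, limma), higher with DNAM-1.

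Fasl was at 350.07, 328.5 and 380.73 TPM in medium, at 232.84, 226.07 and 186.85 TPM on NKp46 and NKG2D antibodies and at 205.17, 209.14 and 171.32 TPM on NKp46 and DNAM-1 antibodies. Every antibody library was below every medium library. It fell with a log2 change of -0.72 (SE 0.12, 95% interval -0.99 to -0.44, adjusted p = 0.039, limma) on the first pair and of -0.85 (SE 0.12, 95% interval -1.13 to -0.58, adjusted p = 0.0158, limma) on the second. Ltb showed the same order without a call: it was at 128.17, 101.67 and 85.32 TPM in medium, 63.41, 45.24 and 51.9 TPM on the first pair and 65.43, 56.28 and 47.14 TPM on the second. Its log2 changes were -0.95 (95% interval -1.39 to -0.52, adjusted p = 0.0824, limma) and -0.88 (95% interval -1.32 to -0.45, adjusted p = 0.0755, limma).

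The other 4 genes were not called. Csf2 was at 30.21, 4.04 and 18.1 TPM in medium, 7.83, 8.8 and 11.4 TPM on the first pair and 12.83, 14.57 and 13.04 TPM on the second, so medium alone spanned both. Tnfsf10 was at 14.83, 9.35 and 26.62 TPM in medium, 13.31, 10.49 and 22.3 TPM on NKG2D and 12.89, 13.86 and 26.85 TPM on DNAM-1, with log2 changes of -0.08 (95% interval -1.02 to 0.86) and 0.12 (95% interval -0.83 to 1.06). Its groups overlap throughout. Lta was at 0, 1.24 and 2.53 TPM in medium, 1.27, 0.27 and 1.94 TPM on the first pair and 3.29, 2.43 and 2.49 TPM on the second. Il10 was listed at 0 in all 3 medium libraries, at 0.37, 1.45 and 11.37 TPM on the first pair and at 0, 0.54 and 5.59 TPM on the second (adjusted p = 0.379 and 0.555, limma).

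Except for Ifng on the DNAM-1 pair, each of these calls was lost in at least 1 fit that left out 1 library. In such fits on the NKG2D pair, the log2 change ran from -0.78 to -0.62 for Fasl. It ran from -3.11 to -2.44 for Tnf and from -1.23 to -1.05 for Ifng. For NKp46 and NKG2D, Fasl lost its call in each of the 6 fits that left out 1 library (adjusted p 0.0511 to 0.159, limma), Tnf without NKG2D replicate 1 (0.12), NKG2D replicate 2 (0.122) or medium replicate 1 (0.0724), and Ifng without NKG2D replicate 1 (0.05). For NKp46 and DNAM-1, Fasl lost its call without DNAM-1 replicate 1, 2 or 3 (adjusted p 0.0575, 0.0704 and 0.0769, limma), while Ifng kept its call in the 6 fits that left out 1 library. Ifng lost its call on the DNAM-1 pair when only the compared groups were fitted (adjusted p = 0.0596, limma), and on the NKG2D pair with no variance trend (adjusted p = 0.0509, limma). Ltb was called without medium replicate 3, at an adjusted p of 0.0436 and 0.0388. With the replicate number as a block in the fit, Ltb was called on both pairs (adjusted p = 0.0191 and 0.0157, limma). Tnf was then called on the DNAM-1 pair (adjusted p = 0.0151, limma). The column names of medium and of each antibody pair carry the same WT numbers, but the labels do not say that this number marks an animal. The main fit did not use it. When groups were read from the titles, Ifng gave log2 changes of 0.089 and 0.21 on the first and second pair. Tnf gave 0.0020 and 0.90, and Fasl -0.035 and -0.15. Of the 8 genes, 0 were then called for either pair. The calls, and the direction for Ifng and Tnf, thus rest on the column names.

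In all, 3 of 8 genes were called on NKp46 and NKG2D, where 0.431% of 13689 genes tested were, and 2 of 8 on NKp46 and DNAM-1, where 0.782% were. At an unadjusted p under 0.05, 4 of 8 passed on each pair, where 15.1% of all genes did on the first and 18.0% on the second. Between the antibody pairs 0 of 8 were called by limma, where 0.0146% of all genes were, and 1 of 8, Tnf, had an unadjusted p under 0.05, where 1.22% of all genes did. The median log2 change over the 8 genes was -0.60 on the first pair and -0.43 on the second, beside -0.04 and -0.04 over all genes. Genes above 0 numbered 13555 to 14674 in the medium libraries and 16107 to 18096 in the antibody libraries. The ILC1 markers summed to 55.3 to 67.3 TPM in medium, 20.8 to 52.6 TPM on the first and 27.7 to 46.6 TPM on the second pair, none of the 5 at 0 in all libraries of a group. Among them only Il7r was called. It fell from 30.2 ± 7.09 TPM in medium to 5.72 ± 0.886 and 7.67 ± 2.25 TPM (log2 changes -2.20 and -1.86). On each pair Il7r was also the only 1 of the 5 with an unadjusted p under 0.05 (limma), beside the shares given above. The median log2 change of the 5 was -0.46 on the first pair and -0.15 on the second. These values follow the column names. The T cell markers found, 7 of 8, summed to 28.1 to 75.0 TPM in medium, 22.0 to 30.0 TPM on the first and 20.7 to 39.6 TPM on the second pair, with Cd4 and Cd8b1 at 0 in all 3 groups. The part of these values in the cytokine results was not tested.

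**Figure D3:**
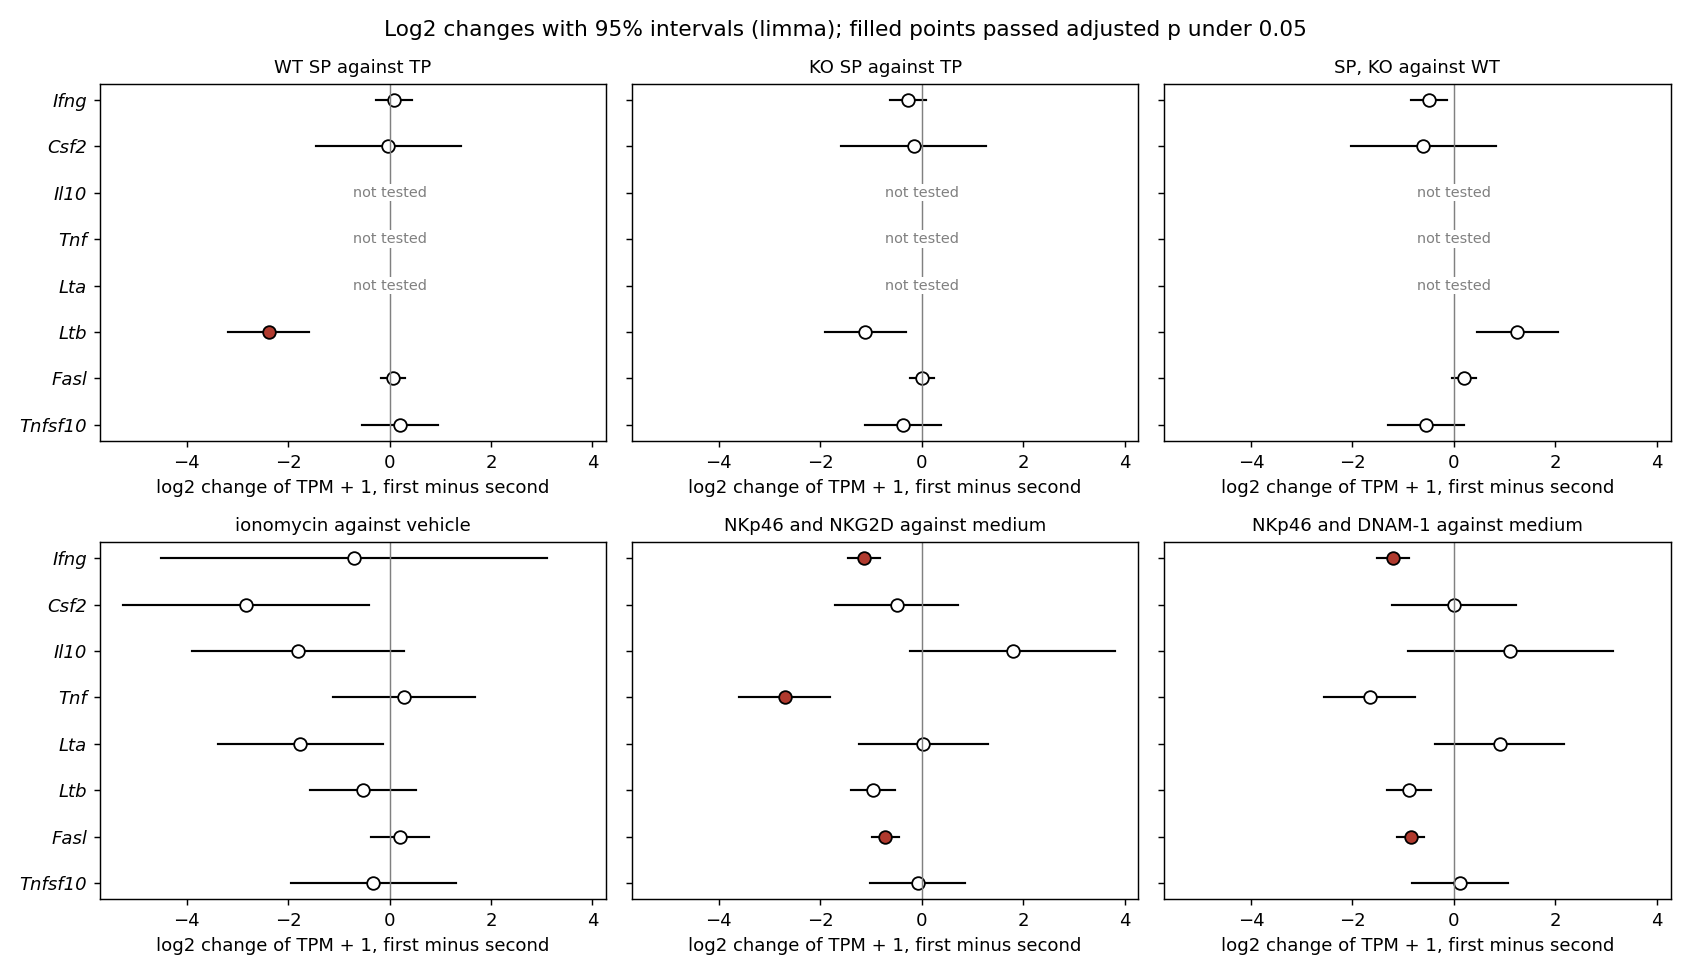
Log2 change of TPM + 1 with its 95% interval (limma) for the 8 genes in 6 comparisons, the first-named group minus the second; filled points passed an adjusted p under 0.05. Ltb is filled in WT SP against TP, Ifng, Tnf and Fasl for NKp46 and NKG2D and Ifng and Fasl for NKp46 and DNAM-1, and the interval of Ifng for ionomycin runs from -4.51 to 3.09.

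Calls among the listed partner genes on the antibodies stand beside 0.431% of all genes tested on the first pair and 0.782% on the second. With groups read from the titles, 0 of all genes tested were called on the first pair and 1 on the second. These calls thus rest on the column names too. Of 33 tested regulators of production 2 fell on each pair and 0 rose: Zfp36, whose product tristetraprolin promotes decay of TNF and other AU-rich transcripts, fell from 364 ± 97.4 to 73.6 ± 12.0 TPM on the first pair and 83.6 ± 11.8 TPM on the second (log2 changes -2.27 and -2.08). Its relative Zfp36l1 fell from 259 ± 20.2 to 116 ± 16.7 and 108 ± 12.1 TPM (log2 changes -1.16 and -1.25). Of 16 tested cytokines and TNF ligands, Osm, the gene of oncostatin M, fell with log2 changes of -1.24 and -1.31, and Tnfsf14 fell on the second pair with a log2 change of -1.57. Of 22 tested receptors and signalling genes 0 were called by limma on either pair, with 3 and 2 at an unadjusted p under 0.05. At that p, 15.1% and 18.0% of all genes passed.

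In tumour NK cells, Ifng was the most abundant of the 8 transcripts. It was at 453.33, 403.41 and 751.7 TPM, Fasl at 238.51, 200.23 and 153.53 TPM, and Ltb at 44.9, 34.96 and 31.05 TPM. The order of mean levels was Ifng, Fasl, Ltb, Tnf, Tnfsf10, Csf2, Lta and Il10. Tnf was at 12.38, 29.52 and 12.1 TPM, Tnfsf10 at 13.48, 7.5 and 17.53 TPM and Csf2 at 9.48, 5.37 and 4.61 TPM. Lta was at 4.95, 0 and 2.09 TPM, and Il10 was above 0 in 1 library, at 3.92 TPM. The markers of MC38 cells or fibroblasts summed to 32.5 to 928 TPM and the macrophage, monocyte and neutrophil markers to 39.8 to 84.1 TPM in these libraries. With 1 group in the table, no comparison was made, and the conflict between column names and labels applies to these values.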

How the data were processed

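RNA from 36 mouse NK cell samples was sequenced. Per the labels, 50 ng of total RNA (RIN above 7) went into the KAPA mRNA HyperPrep kit. The authors deposited TPM, in 4 tables. Per the submitters' processing notes, STAR, RSEM and GRCm39 were used, with no roles or versions given. In the subset table libraries sum to 934292 to 948786 TPM. Depth is unknown, so precision rests on 3 replicates per group, against which an exact permutation test could not go below p = 0.1.

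Within each table, log2(TPM + 1) of genes averaging 1 TPM or more was fitted with limma 3.58.1 in R 4.3.3 with a mean-variance trend and all groups in 1 fit. The tests were two-sided with Benjamini-Hochberg adjustment over all genes tested, and a gene was called at adjusted p under 0.05. A log2 change on TPM + 1 understates that of low genes. The fit was tested on normal log2 values simulated from the means and spreads of these data, with changes added only to well-expressed genes. That test does not show how changes in low genes or values of 0 are handled. The 8 genes, the 3 lists of partner genes and the 6 marker lists were chosen with earlier results of these data known. All 8 genes are named. From each list of partner genes, up to 4 called genes with the largest change are named per comparison, and by Pearson correlation the 3 genes most like each tested gene. Alternatives were the pseudocount, the filter, the trend, quantile normalization and rescaling by median ratios. Others were fitting only the compared groups, a replicate block, groups from titles and leaving out each library. Tumour samples enter no test.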

Additional observations from a re-analysis of the deposited data

How the results depend on the processing

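Over 967 alternative values for 72 gene-by-comparison results, 851 kept direction and side of the threshold, 28 lost a call, 7 gained one, 78 moved and 3 reversed. By definition a call can be lost only where the main fit made one, and the 3 reversals also fell on called results. Most of the 72 results were not called, so these totals say little about the called ones, which are given next. Fasl lost its call in 11 of 14 alternatives on the NKG2D pair and 6 of 14 on the DNAM-1 pair. Tnf lost its call in 5 of 14 on the NKG2D pair and reversed in 1. Ifng lost its call in 2 of 14 on the NKG2D pair and 1 of 14 on the DNAM-1 pair, reversing in 1 on each. Ltb lost its call in 3 of 13 for WT SP against TP. When groups of the antibody experiment were read from the titles, the log2 changes of Ifng were 0.089 (NKp46 and NKG2D) and 0.21 (NKp46 and DNAM-1) and that of Tnf 0.0020 (NKp46 and NKG2D), and 0, 1 and 0 genes were called for the first pair, the second pair and pair against pair, with 0 and 0 of the 8 cytokine genes for the pairs.

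Genes called, when only the compared groups were fitted, were 21 (WT TN against TP), 8 (WT SP against TP), 33 (KO TN against TP), 15 (KO SP against TP), 43, 68 and 12 (KO against WT in TP, SP and TN), 1 (interaction), 26 (NKG2D pair) and 23 (DNAM-1 pair); of the 8 genes, 0 (WT SP against TP), 1 (NKG2D pair) and 0 (DNAM-1 pair). With no filter they were 10 (interaction), 41 (KO SP against TP), 185 (ionomycin) and 45 (DNAM-1 pair), with 1 of the 8 genes for the NKG2D pair. With no trend they were 7 (interaction) and 172 (ionomycin), with 1 of the 8 genes for each antibody pair. With a pseudocount of 0.1 they were 0 (interaction) and 1 (pair against pair).

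The labels do not say that a replicate number marks an animal. Pairs of libraries sharing a number exceeded r 0.1, for deviations from group means, in 0 of 18 (sorted), 1 of 3 (ionomycin) and 1 of 9 (antibody). Their mean r was 0.01, 0.062 and 0.064, beside -0.0052, -0.031 and -0.032 for pairs of other numbers. Libraries correlated best with their own number in 7 of 18 (sorted), 5 of 6 (ionomycin) and 7 of 9 (antibody). With a replicate block the genes called were 1 (interaction), 239 (NKG2D pair), 528 (DNAM-1 pair) and 0 (pair against pair), with 1 of the 8 genes for ionomycin (Csf2, adjusted p = 0.0273, limma) and 4 for the DNAM-1 pair. With this block Ltb was called on the NKG2D and DNAM-1 pairs (adjusted p = 0.0191 and 0.0157, limma) and Tnf on the DNAM-1 pair (adjusted p = 0.0151). The block could not be fitted for KO against WT, since the numbered blocks lie within a genotype.

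Leaving out 1 library at a time, genes called ran from 101 to 149 (WT TN against TP), 17 to 24 (WT SP against TP), 40 to 50 (KO TN against TP), 19 to 27 (KO SP against TP), 109 to 144, 91 to 165 and 51 to 113 (KO against WT in TP, SP, TN), 2 to 5 (interaction), 3 to 342 (ionomycin), 28 to 257 (NKG2D pair), 26 to 516 (DNAM-1 pair) and 0 to 4 (pair against pair). Of the 8 genes, they ran from 0 to 1 (WT SP against TP and ionomycin), 0 to 3 (NKG2D pair) and 1 to 3 (DNAM-1 pair), and 0 to 0 elsewhere. Except where fewer genes or samples were fitted, the cause was not tested. Depth is unknown, so a low value such as that of Lta or Il10 has no counting error.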

Other observations

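Among 10941 named genes, Ifng had the second widest range over the 3 vehicle libraries, 8.37 on the log2 scale, and 335-fold between the highest and the lowest library, beside 0.869 over the 3 ionomycin libraries. The widest was that of Zbtb32, a zinc finger factor, at 446.27, 90.84 and 0 TPM in vehicle replicates 1, 2 and 3. Its highest and lowest libraries were those of Ifng. Pde2a was lowest where Ifng was highest, at 0.17, 96.7 and 256.85 TPM. S100a9, a neutrophil and monocyte gene, was at 0, 0 and 150.03 TPM. These genes were named after their values were seen.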
